A study of Cricetulus griseus with 3 samples.

Results

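The genes described here are Notch3, a Notch receptor, the ligands Jag2, Dll1 and Dlk1, and Hes1 and Hes5, which encode transcriptional repressors switched on by Notch signalling. They were chosen by name, as every spot that the array's annotation gives as a single symbol among these 6 genes, which gave 9 spots of the 17664 on the array. Notch3, Jag2 and Hes1 had 1 spot each, and Dll1, Dlk1 and Hes5 had 2 each. No spot carried 1 of these names beside that of another gene.

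The arrays compared γ-secretase at its highest and lowest in Chinese hamster ovary (CHO) cells, an established line. S-1 cells descend from CHO cells through stable transfection with all subunits of the protease (PS1, NCT-GST, Aph1-a2-HA and Flag-Pen2), and were grown in G418, puromycin, zeocin, hygromycin and blasticidin. The authors also mark APP, a γ-secretase substrate, as overexpressed in S-1 cells. S-1 cells received the carrier DMSO alone (0.05%, 24 h). The other side was untransfected CHO-WT cells given 10 µM of the γ-secretase inhibitor DAPT in 0.05% DMSO for 24 h. Each of 3 arrays paired RNA from an S-1 culture and a DAPT-treated CHO culture of the same experiment (n = 3), and every value is a log2 ratio with S-1 in the numerator and DAPT-treated CHO in the denominator. S-1 RNA was labelled with Cy3 on arrays 1 and 2 and with Cy5 on array 3, the dye swap. The transfected subunits, the overexpressed APP, the selection drugs, the descent of the S-1 line and the inhibitor went together on every array. Their parts in a ratio cannot be told apart. The ratios hold no expression level, and a lower share of expressing cells cannot be told apart from less RNA per cell.

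Notch receptors are single-pass membrane proteins that bind ligands of the Delta and Jagged families on neighbouring cells. Ligand binding opens the receptor to shedding by ADAM proteases, and γ-secretase then cuts it within the membrane and frees the Notch intracellular domain. In the nucleus this domain joins RBPJ and Mastermind proteins and turns on genes such as Hes1 and Hes5. Jag2 and Dll1 are canonical ligands that γ-secretase also cleaves. Dlk1 encodes a related membrane protein that lacks the receptor-binding domain of canonical Delta and Jagged ligands and is best known from preadipocytes.

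The array carried mouse cDNA clones in 32 print-tip blocks, and 736 spots without a gene name, taken as controls from their positions and because their ratios turned with the dye swap (Pearson's r of −0.96 from array 1 to array 3, across spots), were left out. The authors' probe IDs open with H, P or N, and these letters lie at fixed positions of the blocks, so each of the 16928 remaining spots was placed in a collection: 15360 H, 960 P and 128 N clones, and 480 spots where their lists show no clone, called unlisted here. A spot passed if limma's test against a log2 ratio of 0 gave an adjusted p under 0.005. At that threshold 9.68% of all spots passed as higher in S-1 cells, and 8.52% as lower. Higher were 6.76% of the H clones, 19.3% of the P clones, 28.1% of the N clones and 78.8% of the unlisted spots. Of the 480 unlisted spots, 378 passed here as higher. That 0 clones of the authors' lists paired with 1 spot lay on them follows from how these spots were defined. The paper does not state why its lists show no clone there. The direction of the ratios rests in part on the transfected subunits, whose values are therefore no independent check of the labels. The clone of Psenen, the gene of PEN2, was at 2.84, 3.11 and 3.33 on arrays 1 to 3, and that of Aph1a at 1.85, 2.17 and 2.04. Ncstn, the gene of NCT, was at 0.33, 0.15 and 0.64 and did not pass (adjusted p = 0.0313, limma, gene values).

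Of the 9 spots, 7 were higher in S-1 cells, 0 were lower and 2 did not pass. None of the 9 was an H clone. The 5 N clones stood for Notch3, Jag2, Dll1, Hes1 and Hes5, the 2 P clones for Dlk1 and Hes5, and the 2 unlisted spots for Dll1 and Dlk1. Every spot that passed was above 0 on all 3 arrays. When each array or block was centred, arrays were rescaled or quantile normalised, or each collection was centred, no spot that passed changed direction. With each collection centred, the unlisted Dlk1 spot, which had not passed, stood at −1.50 and passed as lower (adjusted p = 2.26e-04, limma). The N clone of Dll1 stood at −0.18 there and still did not pass (adjusted p = 0.0403).

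**Figure D1:**
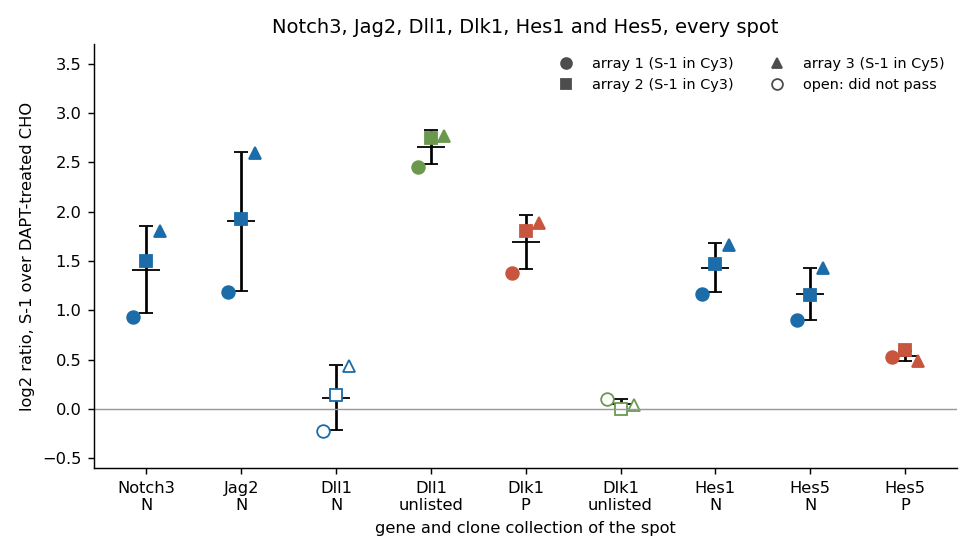
Log2 ratio, S-1 cells against DAPT-treated CHO (vertical axis), for the 9 spots of the 6 genes (horizontal axis, with the collection of each spot), 1 symbol per array, with the mean (horizontal tick) and SD of the 3 arrays (error bars). Filled symbols mark spots that passed, and the open ones are the N clone of Dll1 and the unlisted spot of Dlk1, with means of 0.12 and 0.05.

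Notch3 was higher in S-1 cells. Its N clone was at 0.94 and 1.50 on arrays 1 and 2 and at 1.80 on array 3. The mean log2 ratio was 1.41 ± 0.44 (SD, n = 3, linear ratio 2.66, adjusted p = 0.00264, limma). The lowest value came from array 1 and the highest from the dye swap, and all 3 lay well above 0. The other receptors did not pass. The N clones of Notch1 and Notch2 were at −0.35 ± 0.41 (adjusted p = 0.135) and −0.07 ± 0.27 (adjusted p = 0.653), and the P clone of Notch4 was at 0.12 ± 0.08 (adjusted p = 0.128). Within an array, the Notch3 ratio exceeded that of Notch1 by 1.64, 1.95 and 1.71 on arrays 1 to 3, and that of Notch2 by 1.31, 1.50 and 1.64. These differences spread less between arrays (SD 0.16 and 0.17) than the Notch3 ratio itself. An exact two-sided sign-flip test over 3 arrays cannot give less than p = 0.25, the value for each of these differences, and the same holds for the differences between spots given for the ligands and Hes genes.

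Jag2 had the largest ratio of the 5 N clones described here and also the widest spread. It was at 1.19 and 1.93 on arrays 1 and 2 and at 2.59 on array 3. The mean was 1.90 ± 0.70 (SD, n = 3, linear ratio 3.74, adjusted p = 0.00421, limma), with a 95% interval from 1.24 to 2.57. All 3 values lay above 1, and the dye swap again gave the highest. The N clone of its paralog Jag1 was at −0.64, −0.36 and 0.10 and did not pass (adjusted p = 0.161). Jag2 exceeded Jag1 by 1.83, 2.29 and 2.49 on the 3 arrays.

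The spots of Dll1 went separate ways, although the annotation gives both the same mouse transcript. The unlisted spot was at 2.45, 2.74 and 2.77 on arrays 1 to 3. Its mean of 2.66 ± 0.18 (SD, n = 3, linear ratio 6.30) was the highest of the 9 spots (adjusted p = 1.17e-04, limma). The N clone was at −0.22, 0.14 and 0.44, with a mean of 0.12 ± 0.33 (adjusted p = 0.514) and a 95% interval from −0.21 to 0.44. That interval does not reach the lowest array of the unlisted spot. The unlisted spot exceeded the N clone by 2.68, 2.61 and 2.34 on the 3 arrays. The value of the gene, as the mean of both spots, was 1.39 ± 0.25, and without the unlisted spots it was 0.12 and no longer passed (adjusted p = 0.495).

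The spots of Dlk1 also parted, and here the unlisted spot was the low one. The P clone was at 1.38, 1.80 and 1.89 on arrays 1 to 3, with a mean of 1.69 ± 0.27 (SD, n = 3) and a linear ratio of 3.23 (adjusted p = 4.37e-04, limma). The unlisted spot was at 0.11, 0.01 and 0.04, with a mean of 0.05 ± 0.05 (adjusted p = 0.453) and a 95% interval from −0.07 to 0.17. The values of the 2 spots did not overlap, and they differed by 1.27, 1.80 and 1.85. The annotation gives both the same transcript. The gene value was 0.87 ± 0.11 and passed (adjusted p = 4.89e-04). It was 0.072 with each collection centred (adjusted p = 0.256), and 1.69 without the unlisted spots.

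Hes1, the Notch-induced repressor of the basic helix-loop-helix family, was higher in S-1 cells on every array. Its N clone was at 1.17, 1.47 and 1.66 on arrays 1 to 3, with a mean of 1.43 ± 0.25, a linear ratio of 2.70 (adjusted p = 5.79e-04, limma) and a 95% interval from 1.18 to 1.69. Hes5, a related repressor of neural progenitors, rose on both of its spots, which the annotation gives different transcript records. The N clone was at 0.90, 1.15 and 1.43, with a mean of 1.16 ± 0.26 (SD, n = 3) and a linear ratio of 2.24 (adjusted p = 0.00121, limma). The P clone was at 0.53, 0.59 and 0.49, with a mean of 0.54 ± 0.05 and a linear ratio of 1.45 (adjusted p = 0.00113). The size of the Hes5 rise depended on the spot, and the N clone exceeded the P clone by 0.38, 0.56 and 0.94. Of the 3 genes with 2 spots, Hes5 was the 1 in which both passed. The N clones of Hes1 and Hes5 differed by only 0.26, 0.32 and 0.23 (mean 0.27 ± 0.04).

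The collections of these spots differed in their ratios as a whole, so each spot was also ranked within its collection. The median of the N clones was 0.03, 0.33 and 0.54 on arrays 1 to 3. Of the 128 N clones, 104 were lowest on array 1 and highest on array 3, as were all 5 N clones described here, against 3540 of the 16928 spots tested. Among the N clones Jag2 ranked 4 from the top, Hes1 18, Notch3 19, Hes5 23 and Dll1 71. In the P collection, whose median was 0.03, Dlk1 ranked 18 and Hes5 146 of 960. The unlisted spots had a median of 1.56, and Dll1 ranked 37 and Dlk1 441 of 480. Of the unlisted spots, 143 had a mean between 2.3 and 2.9, where the Dll1 spot lay, against 3 of the 15360 H clones. The part of the collection in the ratios of the 6 genes was not tested.

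**Figure D2:**
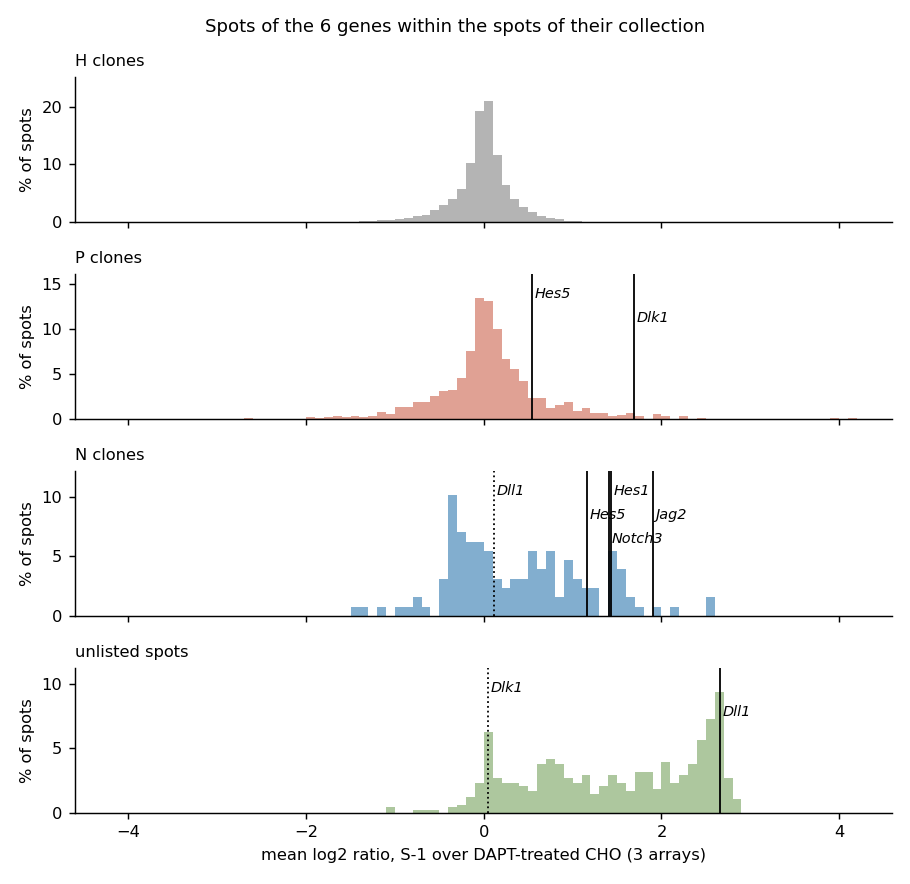
Share of spots (vertical axes, percent, bins of 0.1) by mean log2 ratio, S-1 cells against DAPT-treated CHO (horizontal axis), 1 panel per collection, with lines at the spots of the 6 genes (solid where the spot passed, dotted where it did not). The H and P clones peak near 0, the N clones spread around a median of 0.30, and the unlisted spots peak near 0 and again around 2.66, the value of the Dll1 spot.

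Set against the median of the N clones on the same array, Hes1 and Hes5 hardly varied. Hes1 was 1.13, 1.14 and 1.12 above that median on arrays 1 to 3 (SD 0.01), and Hes5 was 0.87, 0.83 and 0.89 above it (SD 0.03). The SD of Notch3 fell to 0.19, around a mean of 1.11. Jag2 stayed the most variable, at 1.15, 1.60 and 2.05. The Dll1 clone was below the median on each array, at −0.26, −0.19 and −0.10. With each collection centred in this way, the N clones of Notch3, Jag2, Hes1 and Hes5 still passed, and that of Dll1 did not (adjusted p = 0.0403, limma).

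**Figure D3:**
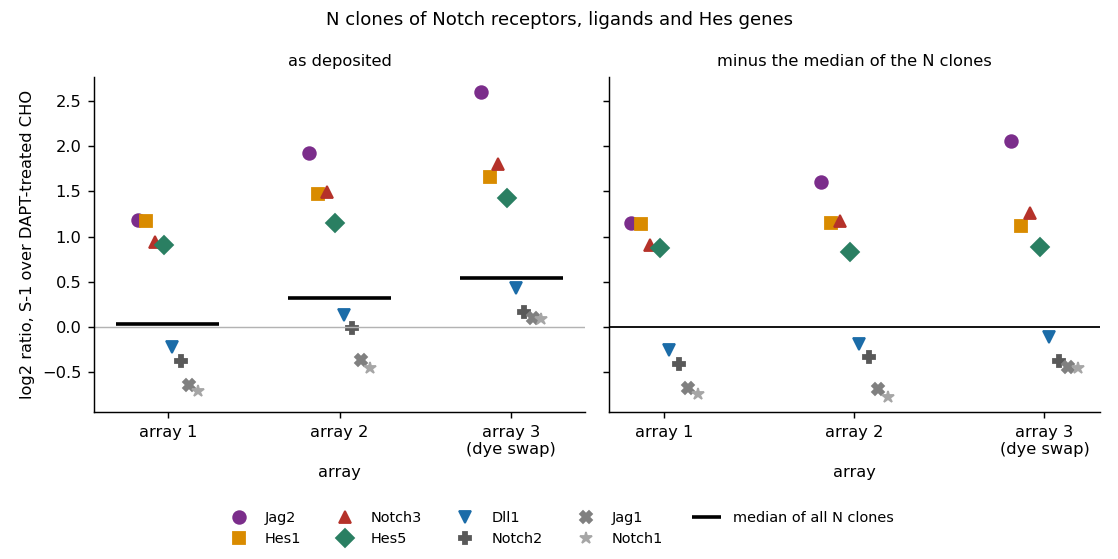
Log2 ratio, S-1 cells against DAPT-treated CHO (vertical axis), of 8 N clones on the 3 arrays (horizontal axis), as deposited (left, with black bars at the median of the 128 N clones) and minus that median (right). Jag2, Hes1, Notch3 and Hes5 lie above the median on every array, and Dll1, Notch2, Jag1 and Notch1 below it.

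Unlisted spots were often above other spots of the same gene. In 230 of the 243 genes that had an unlisted spot and another, the unlisted spot was the higher, by a median of 1.12 (middle 50% of genes from 0.63 to 2.14). Dll1, at 2.54, was among the 69 genes above 2. Dlk1, at −1.64, was among the 13 genes in which the unlisted spot was not the higher. N clones differed from the other spots of their gene by a median of −0.03 over 69 genes. Those other spots could be unlisted ones, so this median cannot tell whether N clones shift against H or P clones.

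Of 76 Notch pathway genes in 5 lists, 52 had a gene value, the mean of their spots, and of these 10 were higher in S-1 cells, 6 were lower and 36 did not pass. Over all 8146 genes 12.4% were higher and 10.3% lower. The median gene value of the 52 was 0.00, and that of all genes 0.01. Without the 6 genes described above, 4 of 46 were higher and 6 lower, which was not tested against the shares over all genes. Of the 10 that were higher, 8 had no H clone on the array, a class in which 44.9% of all genes were higher. With collections centred 12 pathway genes were lower (12.6% of all genes), and with a dye term 10 (21.8%). On H clones alone 2 were higher (8% of all genes with an H clone). Without array 1, 6 pathway genes rose and 1 fell, against 423 and 250 of all 8146 genes. Without array 2, 2 rose and 1 fell, against 317 and 169 of all genes. Without array 3, 13 rose and 13 fell, against 1730 and 1572 of all genes.

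**Figure D4:**
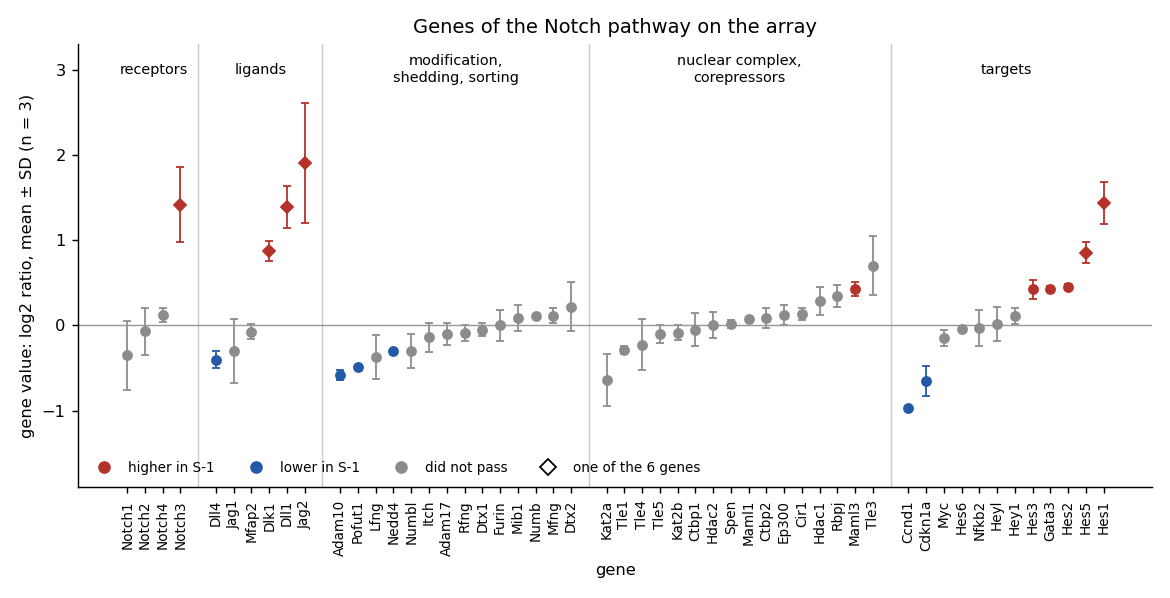
Gene values (vertical axis, log2 ratio, S-1 cells against DAPT-treated CHO, mean ± SD of 3 arrays) of 52 Notch pathway genes (horizontal axis) in 5 lists, coloured by call, with diamonds for the 6 genes. The highest values are those of Jag2, Hes1, Notch3 and Dll1, and the lowest is Ccnd1 at −0.97.

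Among 6 ligand genes with a value, Jag2, Dll1 and Dlk1 rose and Dll4 fell, where 12.4% of all genes rose and 10.3% fell. Of the 6, 1 had an H clone. The 3 that rose had none, a class in which 44.9% of all genes rose. Dll4, the Delta ligand of sprouting vessels, was at −0.33, −0.52 and −0.37 on a P clone (mean −0.40 ± 0.10, SD, n = 3, adjusted p = 0.0037, limma). Jag1 and Mfap2 did not pass, at −0.30 and −0.07.

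Of 14 genes that modify, shed or sort the receptors and their ligands, 0 rose, 3 fell and 11 did not pass. Over all genes 12.4% rose and 10.3% fell. Adam10, the main sheddase of Notch, was at −0.58 ± 0.06 (SD, n = 3) over 2 H clones, of which 1 passed. Pofut1, which adds O-fucose to Notch, was at −0.49 ± 0.01 over an H clone at −0.11 and a P clone at −0.86. Nedd4, a ubiquitin ligase of membrane proteins, was at −0.30 ± 0.02 over 4 H clones, from −0.53 to 0.18. Furin, the convertase that cuts the Notch precursor, had an N clone at 0.56, which did not pass, and a P clone at −0.56, which fell. Single H clones of Adam17, Mib1 and Numb rose, at 0.49, 0.53 and 0.42. These genes had 3, 5 and 4 spots, and their gene values did not pass.

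Of 16 genes of the nuclear complex and its corepressors, 1 rose and 0 fell, where 12.4% of all genes rose and 10.3% fell. The 1 that rose was Maml3, a Mastermind coactivator, at 0.33, 0.47 and 0.48 on an H clone (mean 0.43 ± 0.08, adjusted p = 0.00258). Rbpj, the DNA-binding partner of the Notch intracellular domain, was the 1 gene of 23 with several spots in which a spot rose and another fell. Its H clone fell, at −0.37, −0.35 and −0.37 on the 3 arrays (adjusted p = 0.00286). Its unlisted spot rose, at 1.08, 1.51 and 1.33 (adjusted p = 5.29e-04), and its N clone was at −0.13, 0.08 and 0.29 and did not pass. The gene value of Rbpj was 0.34 (adjusted p = 0.00934). Tle3, a Groucho corepressor, was at 0.36, 0.68 and 1.05 on an N clone and did not pass (adjusted p = 0.0126).

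Of 12 genes listed as targets, 5 rose and 2 fell, where 12.4% of all genes rose and 10.3% fell. Of the 12, 4 had an H clone. Of the 5 that rose, 4 had none, a class in which 44.9% of all genes rose. Besides Hes1 and Hes5, Hes2 rose to 0.45 ± 0.04 and Hes3 to 0.42 ± 0.11, both on P clones and also of the Hes family. Gata3, a T helper cell factor, rose to 0.43 ± 0.03 over an H and a P clone. The Notch effectors Hey1 and Heyl did not pass, at 0.11 and 0.01, and nor did Hes6 at −0.05. Ccnd1, which encodes cyclin D1, fell to −0.97 ± 0.01, with an N clone at −1.13 and an H clone at −0.81. Cdkn1a, the gene of the cell cycle inhibitor p21, was at −0.65 ± 0.18 on a P clone (adjusted p = 0.0024). Myc did not pass, at −0.15 over 3 spots. Genes that mark other cell types were on the array too. Of 12 pancreas and gut markers, of which 1 had an H clone, 6 rose, 1 fell and 5 did not pass. The 6 had no H clone, a class in which 44.9% of all genes rose. Values ran from −1.44 for Fabp2, a P clone, to 2.50 for Ins2, an unlisted spot. Of 3 markers of neurons and glia, 1 rose and 1 fell, and the 1 blood marker did not pass. Their part in the ratios of the Notch genes was not tested.

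Likeness over 3 arrays, as the Euclidean distance between gene values, put some of the 6 genes beside each other. Hes1 was nearest to Phka1 (distance 0.05) and next to Dll1 (0.08), Dlk1 and Hes5 were 0.04 apart, and both of these lay nearest to Fos. Notch3 lay nearest to Wnt10a (0.23), another N clone. Jag2 had no close neighbour, its nearest being Egfr at 0.61. The values of Dll1 and Dlk1 are means of spots that disagree, so that these distances do not describe either spot.

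Leaving out array 2 ended several calls while the ratios hardly moved. Without it the gene values of Notch3, Jag2, Dlk1 and Hes5 were 1.37, 1.89, 0.85 and 0.84, against 1.41, 1.90, 0.87 and 0.85 on all arrays, but no longer passed (adjusted p = 0.0143, 0.0192, 0.00517 and 0.00599, limma). Those of Dll1 and Hes1 did. Of the single spots, only the unlisted Dll1 spot passed without array 2, against 6 without array 1 and 7 without array 3. On arrays 1 and 2 alone the dye and the cell line cannot be told apart. With a dye term added, all 6 gene values passed, from 0.88 for Hes5 to 2.07 for Jag2.

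**Figure D5:**
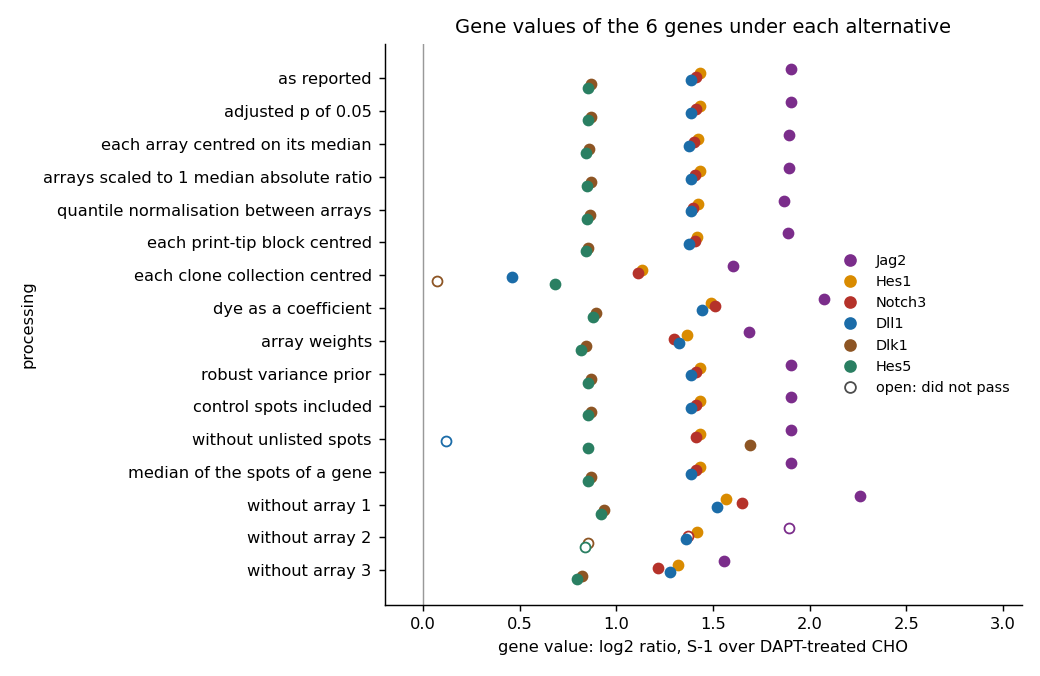
Gene values of the 6 genes (horizontal axis, log2 ratio, S-1 cells against DAPT-treated CHO) under each alternative processing (vertical axis), filled where the adjusted p was under the threshold and open where it was not. The values of Dlk1 with collections centred (0.072) and of Dll1 without the unlisted spots (0.12) stand near 0, and 4 of 6 genes are open without array 2.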

How the data were processed

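Total RNA of 3 independent experiments was amplified, labelled with Cy3 or Cy5 and hybridised to mouse cDNA arrays. The authors scanned the arrays, read them with GenePix Pro and normalised them in R with lowess by print tip, leaving the background in. The deposited log2 ratios, 1 per spot and array, were used with no further normalisation. All 3 columns ran the same way, and their direction, with S-1 in the numerator, rests on the authors' lists of higher clones and on the transfected subunits. Intensities were not used here, so the number of arrays limits the precision.

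Each spot's mean was tested against 0 with limma 3.58.1 (R 4.3.3), with Benjamini-Hochberg adjustment over all 16928 spots, or over 8146 genes for gene values (mean of the spots with the same single symbol). The fit was tested on simulated data. Python 3.11.15 made the tables and figures. The collection of a spot was its position in the block, compared with the authors' probe IDs. The IDs were paired with spots by fold, with the printed fold taken as 2 times the linear ratio given here. Of 2514 clones paired with 1 spot, 2513 lay at a position of their letter. The same pairing helped to set the collections, so this is no independent check. Array 1, 2 and 3 are replicates 1, 2 and 3. The replicates came from separate cultures.

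The 6 genes, the lists and the tests were chosen with earlier results of these data known. The lists were receptors, ligands, receptor and ligand modification, shedding and sorting, nuclear complex and corepressors, targets, and markers of pancreas and gut, neurons and glia, and blood. Named were all spots of the 6 genes, pathway genes that passed, paralogs of the 6, and the 3 genes nearest in value. Genes outside this rule (Furin, Adam17, Mib1, Numb, Rbpj, Tle3, Myc, Mfap2, Ins2 and Fabp2) were named after their values were seen. The differences between spots were also chosen then. Alternatives were a threshold of 0.05, arrays centred, scaled or quantile normalised, blocks or collections centred, a dye term, a robust variance prior, weights per array, control spots included, unlisted spots left out, H clones alone, medians in place of means over the spots of a gene, and each array left out. Promoter motifs and sequences were not analysed here.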

Additional observations from a re-analysis of the deposited data

How the results depend on the processing

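Of 72 gene values of the 6 genes under alternatives other than leaving out an array, 70 kept their direction and side of the threshold, as did 91 of 97 values of single spots. Some of these gene values could not change. A threshold of 0.05 keeps every call made at 0.005, control spots carry no gene name, and the median of 1 or 2 spots is their mean. The exceptions among gene values were Dlk1 with collections centred (0.072) and Dll1 without the unlisted spots (0.12). With collections centred, the P clone of Dlk1 stood at 1.65 and its unlisted spot at −1.50. Without the unlisted spots, only the N clone of Dll1 was left. Among single spots, the unlisted Dlk1 spot turned to −1.50 and the N clone of Dll1 to −0.18 with collections centred, and the latter ranged from −0.043 (without array 3) to 0.29 (without array 1) with an array left out. Neither had passed. Jag2 lost its call with a robust variance prior (adjusted p = 0.00503), and the N clones of Notch3, Jag2 and Hes5 lost theirs with control spots included, which left 4 of 7 spots that passed. Pathway genes that fell numbered 10 at a threshold of 0.05, 12 with collections centred and 10 with a dye term. Over all 8146 genes these settings gave 1774, 1023 and 1772 that fell. On H clones alone 2 pathway genes rose, and 599 of all 7489 genes with an H clone. The cause was not tested for these. Leaving out each array in turn gave gene values from 0.82 to 0.93 for Dlk1, 0.79 to 0.92 for Hes5, 1.56 to 2.26 for Jag2 and 1.22 to 1.65 for Notch3, with 1 to 7 spots and 2 to 6 gene values that passed, and 2 to 13 pathway genes that rose and 1 to 13 that fell. With an array left out, 317 to 1730 of all 8146 genes rose and 169 to 1572 fell. All tested spots gave 363 calls without array 2 and 6265 without array 3. The 6 genes have no H clone, so they have no value on H clones alone. Each ratio already pairs both cultures of an experiment on 1 array, so the test against 0 was the paired comparison.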
